A study of Homo sapiens with 12 samples.

Results

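The TNF ligand and receptor superfamily was described in MDA-MB-231 cells, a triple-negative breast cancer line, after treatment with a BET bromodomain inhibitor, a histone deacetylase inhibitor or both. Members were the genes with a probe set of exactly 1 symbol that begins with TNFSF or TNFRSF, together with TNF, LTA, LTB, LTBR, FAS, FASLG, CD40, CD27, CD70, EDA, EDAR, EDA2R and NGFR. This gave 42 of 22392 genes, held by 62 of 53617 probe sets, and each gene was read from the probe set with the highest mean over the 12 arrays. They comprised 15 ligands, 8 receptors with a death domain, 2 decoy or soluble receptors, 14 other receptors that bind TRAF adaptors and 3 non-coding neighbours that carry a family symbol (TNFRSF10A-DT, TNFRSF10B-AS1 and TNFRSF14-AS1). CD40LG, TNFRSF1B, TNFRSF10C, TNFRSF6B, TNFRSF13B, TNFSF12 and TNFSF13 were not analysed here.

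The cells were exposed for 48 hours to 1 μM JQ1, to 3.17 μM mocetinostat by the sample labels, to JQ1+mocetinostat, or to the vehicle DMSO, with 3 arrays per group. JQ1 displaces BET proteins from acetylated histones, and mocetinostat (MGCD0103) inhibits class I histone deacetylases. RNA was hybridized to Affymetrix Human Gene 2.1 ST arrays, and the study describes the 3 arrays of a group as independent experiments on this single line. Arrays were grouped by title and source name, which match each other, because for most samples the description field gives a different treatment.

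Ligands of the family are mostly trimeric membrane proteins that can be shed, and each engages 1 or several receptors. Receptors with a cytoplasmic death domain, such as FAS, TNFRSF1A and the TRAIL receptors, can assemble FADD and caspase-8 into a death-inducing complex, whereas the others recruit TRAF adaptors and signal mainly to NF-κB and MAP kinases. Decoy receptors bind a ligand without passing on a death signal, and many ligands and receptors are best known from lymphocytes, although epithelial tumours also express several of them.

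All values are log2 signals summarized by RMA, so that 1 unit is a 2-fold difference, and because probes differ in response, a higher signal of one gene than of another is not a higher abundance. Array medians were 3.58 to 3.66, and arrays correlated more with their own group (mean r 0.987 to 0.991) than with other groups (0.956 to 0.968). The 5 mesenchymal breast markers measured read between 8.76 and 12.5 in all arrays, and CD44, CAV1 and AXL among them fell with the combination. ESR1, PGR and FOXA1, which define luminal cells, stayed at or below 4.10. The other luminal markers, CDH1 and GATA3, were not low in all groups. CDH1 rose with mocetinostat (log2 fold change 2.78) to a mean of 6.31. GATA3 had a mean of 6.68 in DMSO and fell with mocetinostat (−1.72) and with the combination (−2.02). Of the 4 leukocyte genes measured, PTPRC, CD3E and CD2 read 2.41 to 3.61 in all arrays. CD14 read 4.34 to 7.12, fell with JQ1 (−1.18) and rose with mocetinostat (1.11), so that the mean of the 4 was 3.498 to 3.549 with JQ1, 3.955 to 3.986 with mocetinostat, 3.503 to 3.697 with the combination and 3.665 to 3.771 with DMSO. The part of these markers in the changes below was not tested. Of the 42 members, 20 stayed under 5 in every array and 22 reached 5 or more in at least 1 array.

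Treatment moved members in both directions. In a limma fit of all 12 arrays, a gene that differed by at least 2-fold with an unadjusted p under 0.001, the study's own filter, was called higher or lower. Of the 42 members, 19 were called in at least 1 comparison with DMSO and 23 in none. The share of all genes called in at least 1 was not determined, so these counts have no background. In all 3 comparisons, 4 members and 835 of the 22392 genes were called. JQ1 called 2 members higher, against a background of 2.14% of all genes, and 8 lower, against 4.51%. Mocetinostat called 7 higher (background 7.08%) and 2 lower (5.50%). JQ1+mocetinostat called 5 higher (7.06%) and 9 lower (8.11%). As shares of the 42 members these were 4.76% and 19.0% with JQ1, 16.7% and 4.76% with mocetinostat, and 11.9% and 21.4% with the combination. The share called lower was thus above the background with JQ1 and the combination and near it with mocetinostat. The share called higher was above the background in all 3 comparisons, resting on 2 members with JQ1. No chance test of these shares was made. The median log2 fold change of the members was −0.18 for JQ1, −0.03 for mocetinostat and −0.05 for the combination, against 0.02, −0.01 and −0.00098 over all genes. The 3 comparisons share the DMSO arrays. In RNA from whole cultures, fewer cells expressing a gene and less of its RNA per cell cannot be told apart.

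The balance of directions depended on the scale of the arrays, more so under 1 of 2 scalings to 50 ribosomal protein genes. Scaling to their level shifted the median gene by −0.39 in the JQ1 comparison, by −0.28 in that of mocetinostat and by −0.47 in that of the combination. Then 13, 4 and 13 members were called lower, instead of 8, 2 and 9. Of all genes, 9%, 9.24% and 16.5% were then called lower, instead of 4.51%, 5.50% and 8.11%. The shares called higher were 0.795%, 4.87% and 3.54%, instead of 2.14%, 7.08% and 7.06%, so all genes moved the same way. The members called higher among those called made up 7.1% instead of 20.0% with JQ1, 55.6% instead of 77.8% with mocetinostat and 23.5% instead of 35.7% with the combination. Calls gained were all decreases, namely LTB, LTBR, TNFRSF10B, TNFRSF10D and TNFSF18 with JQ1, LTBR and TNFSF15 with mocetinostat, and FAS, NGFR, TNF and TNFRSF10A-DT with the combination. With the median deviation of the ribosomal protein genes as the scale, the shifts were −0.11, −0.15 and −0.27 and the shares were 20.0%, 75.0% and 26.7%. The calls gained were NGFR and TNFRSF10A-DT with the combination. Of all genes, 1.55%, 5.75% and 4.69% were then called higher and 5.38%, 7.29% and 12% lower.

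**Figure D1:**
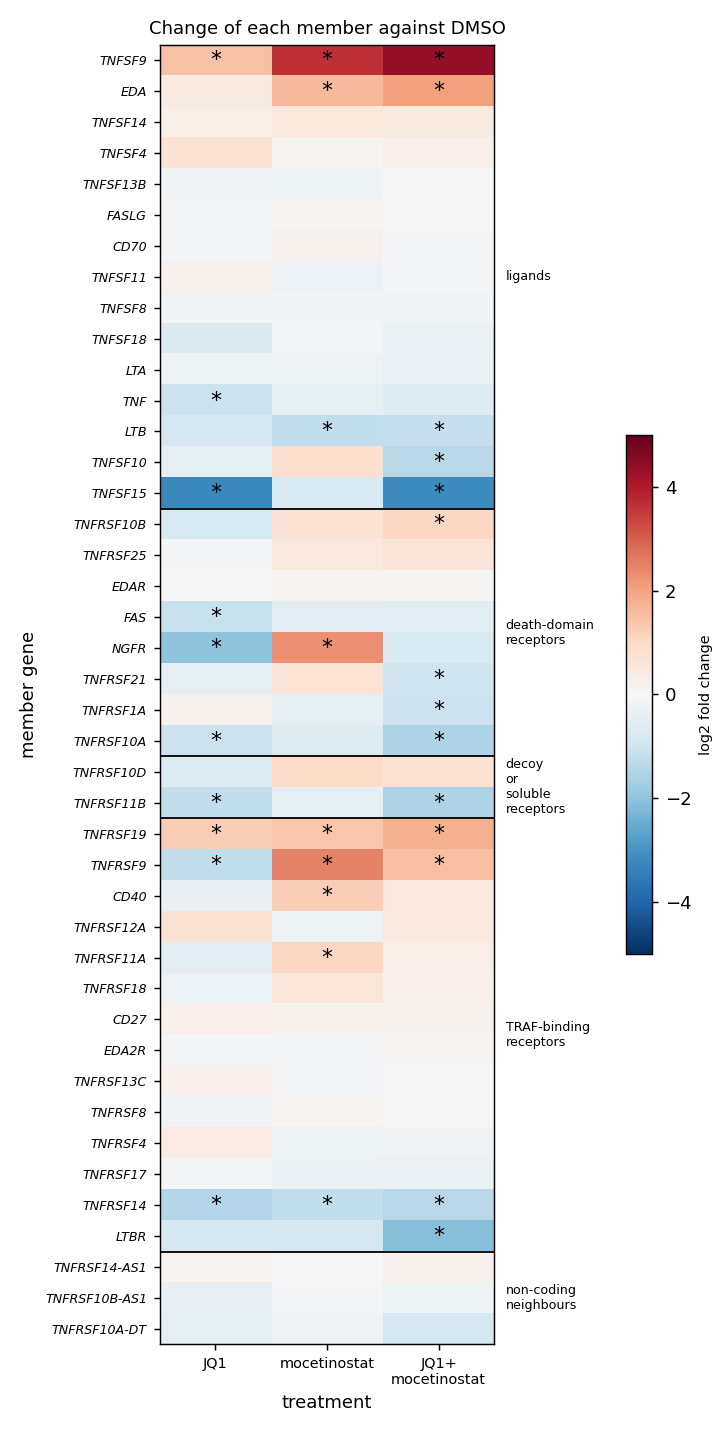
Log2 fold change of each of the 42 members against DMSO (colour, red higher and blue lower) in cells treated with JQ1, mocetinostat or both (columns), grouped by role (rows), with an asterisk where the change was called. TNFSF9 and TNFRSF19 were called higher in all 3 columns, TNFRSF14 lower in all 3, and NGFR and TNFRSF9 lower with JQ1 and higher with mocetinostat.

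The ligand TRAIL was called lower with the combination and with neither compound alone, while its death receptors moved apart. TNFSF10, which encodes TRAIL, an inducer of apoptosis through TNFRSF10A and TNFRSF10B, is shown first with its promoter, because its response to the combination was opposite to that to mocetinostat. The sequence is the 250 bases before the RefSeq gene start on chr3:172523431-172523680, minus strand, GRCh38.p14, 5′ to 3′, with a TATA box in capitals.
TNFSF10: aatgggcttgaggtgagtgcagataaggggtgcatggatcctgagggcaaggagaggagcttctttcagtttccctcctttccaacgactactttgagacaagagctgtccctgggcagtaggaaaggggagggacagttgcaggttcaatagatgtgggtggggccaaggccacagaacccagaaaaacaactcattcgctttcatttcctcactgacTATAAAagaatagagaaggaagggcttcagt

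The signal of TNFSF10 was 10.29, 10.31 and 10.17 in the JQ1 arrays, 11.53, 11.49 and 11.60 with mocetinostat, 9.29, 9.33 and 9.35 with JQ1+mocetinostat and 10.70, 10.70 and 10.73 with DMSO. The 3 combination arrays were the lowest of the 12 and the mocetinostat arrays the highest, with no overlap between any groups. TNFSF10 fell with both compounds (log2 change −1.39, SE 0.08, adjusted p = 1.02e-07), whereas the change was −0.46 with JQ1 (SE 0.08, adjusted p = 0.00167) and 0.83 with mocetinostat (SE 0.08, adjusted p = 9.91e-06), both under 2-fold.

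TNFRSF10A read 5.80, 5.59 and 5.89 with JQ1, 6.04, 6.31 and 6.25 with mocetinostat, 5.41, 5.45 and 5.02 with the combination and 6.79, 6.95 and 6.78 in the DMSO arrays. TNFRSF10A, the TRAIL receptor DR4, was highest in the DMSO arrays, which overlapped with no treated group, and lowest with the combination. It fell with JQ1 (log2 change −1.08, SE 0.13, adjusted p = 0.000149) and with the combination (log2 change −1.55, SE 0.13, adjusted p = 3.28e-06), and with mocetinostat the change was −0.64 (SE 0.13, adjusted p = 0.00376). The JQ1 call was lost without JQ1 replicate 2 (−0.99).

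With JQ1 the TNFRSF10B signal was 8.01, 8.18 and 8.16, with mocetinostat 9.54, 9.64 and 9.59, with both 9.93, 9.84 and 9.98, and with DMSO 8.98, 8.78 and 8.88. TNFRSF10B, the TRAIL receptor DR5, was highest with the combination and lowest with JQ1, and no groups overlapped. It rose with the combination (log2 change 1.04, SE 0.09, adjusted p = 3.16e-06), while JQ1 gave −0.76 and mocetinostat 0.71, both with SE 0.09 and under 2-fold. The combination was thus called higher for DR5 and lower for DR4 and for their ligand. The DR5 call was lost when the arrays were scaled to ribosomal protein genes (log2 fold change 0.57, or 0.77 by their median deviation) and without DMSO replicate 2 (0.99).

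TNFRSF10D, a decoy receptor for TRAIL with a truncated death domain, was not called against DMSO (JQ1 gave −0.67, mocetinostat 0.97 and the combination 0.72, each SE 0.11). The mocetinostat change became a call without DMSO replicate 2, and the JQ1 change with the arrays scaled to ribosomal protein genes. The signal of TNFRSF10D was 8.41, 8.11 and 8.26 in the JQ1 arrays, 9.91, 9.92 and 9.88 with mocetinostat, 9.68, 9.59 and 9.68 with JQ1+mocetinostat and 8.91, 9.13 and 8.75 with DMSO. The JQ1 arrays were the lowest and the mocetinostat arrays the highest. TNFRSF11B, which encodes osteoprotegerin, a soluble receptor that binds RANKL and TRAIL, moved otherwise. TNFRSF11B read 4.16, 4.30 and 3.997 with JQ1, 4.91, 4.68 and 5.14 with mocetinostat, 4.0, 3.78 and 3.85 with the combination and 5.49, 5.38 and 5.33 in the DMSO arrays. It was highest in DMSO and fell with JQ1 (log2 change −1.25, SE 0.13, adjusted p = 3.42e-05) and with the combination (log2 change −1.52, SE 0.13, adjusted p = 2.52e-06), and mocetinostat gave −0.49 (SE 0.13).

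TNF was called lower with JQ1 and its main receptor TNFRSF1A with the combination, a difference between the genes that was not tested. With JQ1 the TNF signal was 3.71, 3.97 and 4.10, with mocetinostat 4.39, 4.76 and 4.45, with both 4.13, 4.38 and 4.58, and with DMSO 4.996, 5.13 and 4.90. TNF, the founding inflammatory cytokine of the family, was read at low signals by this probe set, highest in DMSO with no overlap with the treated groups. It fell with JQ1 (log2 change −1.08, SE 0.15, adjusted p = 0.000331), and the changes were −0.48 with mocetinostat and −0.64 with the combination (each SE 0.15). Of 8 TNF probe sets 7 hold identical values, and the remaining one gave −0.87 with JQ1, which was not called. The call was also lost without JQ1 replicate 1 (−0.97).

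The signal of TNFRSF1A was 8.46, 8.62 and 8.57 in the JQ1 arrays, 8.01, 7.82 and 7.91 with mocetinostat, 7.32, 7.40 and 7.22 with JQ1+mocetinostat and 8.39, 8.18 and 8.47 with DMSO. TNFRSF1A, the broadly expressed death-domain receptor of TNF, was lowest in the combination arrays, and the JQ1 and DMSO arrays overlapped. It fell with the combination (log2 change −1.03, SE 0.10, adjusted p = 1.03e-05), with −0.43 (SE 0.10) after mocetinostat and 0.20 (SE 0.10, adjusted p = 0.244) after JQ1. The call lies close to 2-fold and was lost without JQ1+mocetinostat replicate 3 (−0.99) and without DMSO replicate 3 (−0.97).

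FAS read 4.08, 3.89 and 4.10 with JQ1, 4.60, 4.81 and 4.45 with mocetinostat, 4.57, 4.65 and 4.500 with the combination and 4.96, 5.39 and 5.06 in the DMSO arrays. FAS, the receptor through which FAS ligand triggers apoptosis, was lowest with JQ1, highest in DMSO, and overlapped between mocetinostat and the combination. It fell with JQ1 (log2 change −1.11, SE 0.13, adjusted p = 9.76e-05) but not past 2-fold with mocetinostat (−0.52) or the combination (−0.56, each SE 0.13), and the JQ1 call was lost without DMSO replicate 2 (−0.99). With JQ1 the FASLG signal was 2.53, 2.45 and 2.30, with mocetinostat 2.61, 2.57 and 2.71, with both 2.73, 2.61 and 2.22, and with DMSO 2.31, 2.501 and 2.78. FASLG, the ligand of FAS, stayed at or below 2.78 in all arrays, its treated groups overlapped DMSO, and its changes against DMSO lay between −0.10 and 0.10 (SE 0.15).

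NGFR answered the single compounds in opposite directions. The signal of NGFR was 5.13, 5.33 and 4.81 in the JQ1 arrays, 9.34, 9.27 and 9.57 with mocetinostat, 6.32, 6.15 and 6.46 with JQ1+mocetinostat and 6.94, 7.03 and 7.31 with DMSO. NGFR, the low-affinity neurotrophin receptor, which carries a death domain, was highest with mocetinostat and lowest with JQ1, and no groups overlapped. It fell with JQ1 (log2 change −2.01, SE 0.15, adjusted p = 3.55e-06) and rose with mocetinostat (log2 change 2.30, SE 0.15, adjusted p = 5.15e-07), and JQ1+mocetinostat gave −0.78 (SE 0.15, adjusted p = 0.00219), under 2-fold but called lower with either scaling to ribosomal protein genes. TNFRSF21, the death receptor DR6, read 9.89 to 10.01 with JQ1, 11.01 to 11.14 with mocetinostat, 9.37 to 9.42 with the combination and 10.30 to 10.503 with DMSO. It was lowest with the combination, where it fell by 1.003 on the log2 scale (SE 0.09, adjusted p = 2.96e-06), and the changes were −0.44 with JQ1 and 0.67 with mocetinostat (SE 0.09). That call lies at the 2-fold limit and was lost without JQ1+mocetinostat replicate 2 (−0.987), DMSO replicate 2 (−0.954) or DMSO replicate 3 (−0.9995). The other death-domain receptors TNFRSF25 and EDAR were not called, and EDAR stayed at or below 3.43.

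**Figure D2:**
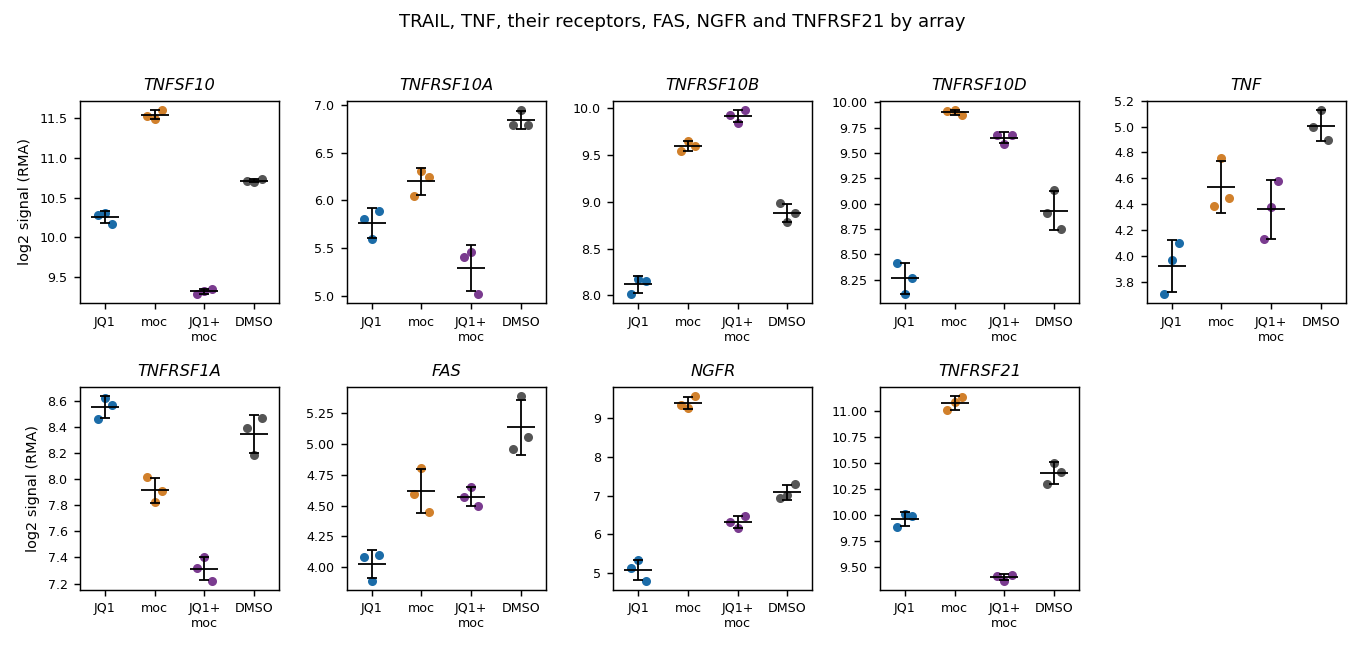
Log2 signal in each array (points) with the group mean and SD (bars, n = 3 arrays) for TRAIL, its receptors, TNF, TNFRSF1A, FAS, NGFR and TNFRSF21, with JQ1, mocetinostat (moc), their combination and DMSO from left to right and a separate scale in each panel. TNFSF10 and TNFRSF21 are lowest with the combination and highest with mocetinostat, while TNFRSF10B is highest with the combination.

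Of the 42 members, TNFSF9 had the largest change against DMSO with mocetinostat and with the combination. TNFSF9 is the ligand and TNFRSF9 the receptor of the CD137 pair, a costimulatory axis of T cells. Their promoters are shown because both members were called in all 3 comparisons with DMSO, with the response of the receptor opposite between the compounds. Each sequence is the 250 bases before the RefSeq gene start, 5′ to 3′, GRCh38.p14, with TNFSF9 on chr19:6530776-6531025, plus strand, and TNFRSF9 on chr1:7940840-7941089, minus strand. Capitals mark a TATA box in TNFSF9 and, in TNFRSF9, an NF-κB motif followed by an AP-1 motif.
TNFSF9: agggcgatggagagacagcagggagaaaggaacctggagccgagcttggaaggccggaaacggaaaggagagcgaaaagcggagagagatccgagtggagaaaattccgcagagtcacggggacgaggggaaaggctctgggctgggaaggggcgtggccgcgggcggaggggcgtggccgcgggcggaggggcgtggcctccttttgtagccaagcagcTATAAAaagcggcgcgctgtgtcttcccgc
TNFRSF9: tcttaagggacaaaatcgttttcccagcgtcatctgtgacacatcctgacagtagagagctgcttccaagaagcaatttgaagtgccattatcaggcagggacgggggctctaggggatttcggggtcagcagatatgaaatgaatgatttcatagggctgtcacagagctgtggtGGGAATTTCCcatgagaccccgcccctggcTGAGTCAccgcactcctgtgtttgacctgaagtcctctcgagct

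TNFSF9 read 7.20, 7.41 and 7.42 with JQ1, 9.54, 9.68 and 9.44 with mocetinostat, 10.23, 10.34 and 10.31 with the combination and 5.77, 6.09 and 5.83 in the DMSO arrays. The combination arrays were the highest, then those with mocetinostat, then those with JQ1, and the DMSO arrays were the lowest, with no overlap. TNFSF9 rose with JQ1 (log2 change 1.45, SE 0.11, adjusted p = 3.67e-06), with mocetinostat (log2 change 3.65, SE 0.11, adjusted p = 1.02e-09, 12.6-fold) and with JQ1+mocetinostat (log2 change 4.40, SE 0.11, adjusted p = 2.03e-10, 21.1-fold). With JQ1 the TNFRSF9 signal was 5.63, 5.73 and 5.70, with mocetinostat 9.51, 9.32 and 9.38, with both 8.35, 8.46 and 8.45, and with DMSO 7.03, 7.04 and 6.72. TNFRSF9 was lowest with JQ1 and highest with mocetinostat, also with no overlap. It fell with JQ1 (log2 change −1.24, SE 0.11, adjusted p = 6.88e-06) and rose with mocetinostat (log2 change 2.47, SE 0.11, adjusted p = 1.19e-08) and with the combination (log2 change 1.49, SE 0.11, adjusted p = 5.66e-07). Ligand and receptor of this pair therefore both rose with mocetinostat and parted with JQ1.

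TNFSF15, a ligand of the death receptor TNFRSF25 known as TL1A, had the largest decrease against DMSO of the 42 members. Its promoter, chr9:114792531-114792780, minus strand, GRCh38.p14, is given for that reason, again as the 250 bases before the RefSeq gene start with an AP-1 motif in capitals.
TNFSF15: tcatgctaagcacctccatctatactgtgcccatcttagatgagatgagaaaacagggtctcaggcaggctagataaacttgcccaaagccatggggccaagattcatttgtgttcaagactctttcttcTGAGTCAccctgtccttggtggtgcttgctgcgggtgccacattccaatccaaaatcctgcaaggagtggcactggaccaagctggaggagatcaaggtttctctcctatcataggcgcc

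The signal of TNFSF15 was 4.95, 4.91 and 4.79 in the JQ1 arrays, 7.40, 7.49 and 7.03 with mocetinostat, 4.81, 5.01 and 4.93 with JQ1+mocetinostat and 8.21, 7.73 and 8.32 with DMSO. The JQ1 and combination arrays overlapped near 5, far below the others, and the mocetinostat arrays lay below those of DMSO. TNFSF15 fell with JQ1 (log2 change −3.21, SE 0.16, adjusted p = 1.39e-07, 9.24-fold) and with the combination (log2 change −3.17, SE 0.16, adjusted p = 3.91e-08, 9.01-fold), and mocetinostat gave −0.78 (SE 0.16, adjusted p = 0.00345). JQ1+mocetinostat differed from JQ1 by 0.04 for this gene, with a 95% interval of −0.32 to 0.39.

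LTB read 3.95, 3.85 and 4.21 with JQ1, 3.61, 3.75 and 3.52 with mocetinostat, 3.85, 3.71 and 3.52 with the combination and 4.95, 4.77 and 4.80 in the DMSO arrays. LTB, the membrane-bound lymphotoxin β, was highest in DMSO, and LTB was the single member under 5 in every array that was called against DMSO. It fell with mocetinostat (log2 change −1.21, SE 0.12, adjusted p = 1.53e-05) and with the combination (log2 change −1.15, SE 0.12, adjusted p = 1.89e-05), while JQ1 gave −0.84 (SE 0.12). Of 8 LTB probe sets 7 hold identical values, and the remaining one was not called (−0.50 with mocetinostat and −0.35 with the combination). With JQ1 the LTBR signal was 8.27, 8.29 and 8.31, with mocetinostat 8.37, 8.32 and 8.15, with both 7.03, 7.02 and 6.91, and with DMSO 9.04, 9.08 and 9.20. LTBR, the receptor of lymphotoxin, stood in the order combination, then mocetinostat and JQ1 overlapping each other, then DMSO. It fell with the combination (log2 change −2.11, SE 0.09, adjusted p = 9.07e-09, 4.33-fold), and JQ1 (−0.82) and mocetinostat (−0.83, each SE 0.09) did not reach 2-fold. LTA, the soluble lymphotoxin, was not called and ranged from 3.97 to 4.82.

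The signal of EDA was 4.53, 4.69 and 4.86 in the JQ1 arrays, 5.93, 5.95 and 5.69 with mocetinostat, 6.27, 6.19 and 6.34 with JQ1+mocetinostat and 4.25, 4.43 and 4.01 with DMSO. EDA, the ectodysplasin ligand of skin appendage development, was highest with the combination and lowest in DMSO. It rose with mocetinostat (log2 change 1.63, SE 0.13, adjusted p = 2.1e-06) and with JQ1+mocetinostat (log2 change 2.03, SE 0.13, adjusted p = 2.45e-07), and JQ1 gave 0.46 (SE 0.13). Its receptors EDAR and EDA2R were not called and stayed at or below 3.43. TNFRSF19 read 5.84, 5.59 and 5.72 with JQ1, 5.83, 6.11 and 5.77 with mocetinostat, 5.99, 6.20 and 6.66 with the combination and 4.495, 4.34 and 4.66 in the DMSO arrays. TNFRSF19, an orphan receptor also called TROY, was lowest in DMSO, with no overlap with the treated groups. It rose with JQ1 (log2 change 1.22, SE 0.17, adjusted p = 0.000285), mocetinostat (log2 change 1.41, SE 0.17, adjusted p = 5.09e-05) and the combination (log2 change 1.78, SE 0.17, adjusted p = 5.63e-06). The JQ1 call was lost with the arrays scaled to ribosomal protein genes (0.83).

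With JQ1 the TNFRSF14 signal was 3.15, 3.64 and 3.92, with mocetinostat 3.40, 4.09 and 3.92, with both 3.53, 3.60 and 3.90, and with DMSO 5.06, 5.15 and 4.94. TNFRSF14, the herpesvirus entry mediator, a receptor of LIGHT, was highest in DMSO, and the treated groups overlapped one another. It fell with JQ1 (log2 change −1.48, SE 0.21, adjusted p = 0.000415), mocetinostat (log2 change −1.25, SE 0.21, adjusted p = 0.000852) and the combination (log2 change −1.37, SE 0.21, adjusted p = 0.000353). The signal of CD40 was 6.52, 6.42 and 6.62 in the JQ1 arrays, 8.34, 7.99 and 8.21 with mocetinostat, 7.38, 7.46 and 7.498 with JQ1+mocetinostat and 7.01, 6.71 and 7.10 with DMSO. CD40, a costimulatory receptor of antigen-presenting cells, was highest with mocetinostat and lowest with JQ1, with no overlap between groups. It rose with mocetinostat (log2 change 1.24, SE 0.12, adjusted p = 1.4e-05), whereas JQ1 gave −0.42 and the combination 0.51 (each SE 0.12). The mocetinostat call became 0.96 with the arrays scaled to ribosomal protein genes, just under 2-fold. TNFRSF11A, the receptor RANK of osteoclast formation, read 4.79 to 5.33 with JQ1, 6.48 to 6.92 with mocetinostat, 5.80 to 6.25 with the combination and 5.46 to 5.77 with DMSO. It rose with mocetinostat (1.03, SE 0.18, adjusted p = 0.000893), a call that was lost without mocetinostat replicate 3 (0.90), without DMSO replicate 1 (0.93) and with either scaling to ribosomal protein genes (0.75 and 0.88).

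**Figure D3:**
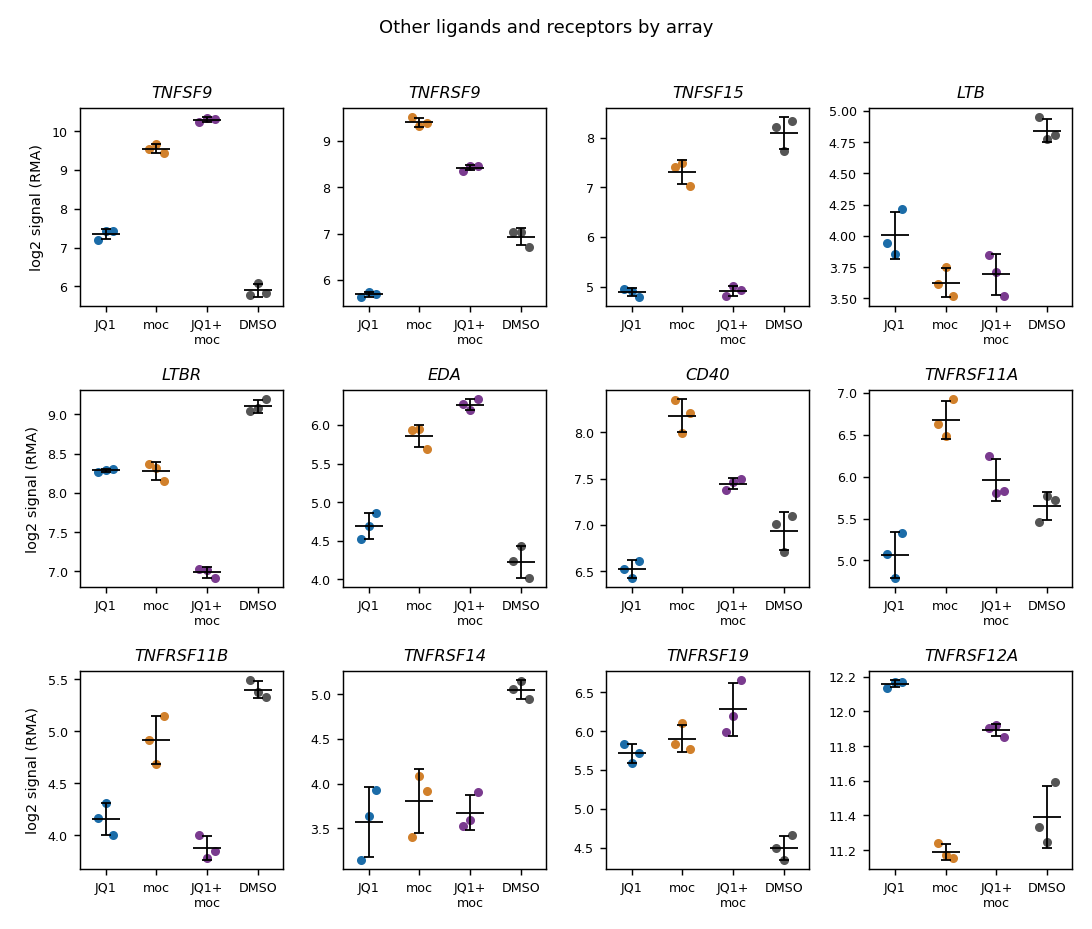
Log2 signal in each array (points) with the group mean and SD (bars, n = 3 arrays) for 12 other ligands and receptors, with JQ1, mocetinostat (moc), their combination and DMSO from left to right and a separate scale in each panel. TNFSF9 is lowest in DMSO and highest with the combination, and TNFSF15 lies near 5 with JQ1 and with the combination.

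Members not called against DMSO mostly had low signals. The ligands CD70, FASLG, LTA, TNFSF4, TNFSF8, TNFSF11, TNFSF13B, TNFSF14 and TNFSF18 stayed between 2.22 and 4.82 in all arrays. TNFSF4, the OX40 ligand, had the largest of their increases with JQ1 (0.72, SE 0.15, adjusted p = 0.00574), and TNFSF18, the GITR ligand, the largest of their decreases (−0.72, SE 0.21, adjusted p = 0.0339). The TRAF-binding receptors CD27, EDA2R, TNFRSF4, TNFRSF8, TNFRSF13C, TNFRSF17 and TNFRSF18 read from 2.02 to 4.97. TNFRSF12A, the receptor of TWEAK, read 12.14 to 12.17 with JQ1, 11.15 to 11.24 with mocetinostat, 11.86 to 11.92 with the combination and 11.25 to 11.60 with DMSO, and its changes of 0.77 with JQ1 (SE 0.10, adjusted p = 0.000164) and 0.50 with the combination were under 2-fold. The 3 non-coding neighbours were not called in the 7 comparisons. TNFRSF10A-DT, which is transcribed divergently from the DR4 gene, gave −0.49 for JQ1, −0.17 for mocetinostat and −0.88 for the combination (each SE 0.15), the last of which became a call with either scaling to ribosomal protein genes.

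When the combination was set against each compound alone, several of the members above were called, some against the direction of the single compound. Against JQ1, the combination called 6 members higher (background 4.46%) and 2 lower (3.23%). The higher ones were TNFSF9 (2.95), TNFRSF9 (2.73), TNFRSF10B (1.80), EDA (1.57), TNFRSF10D (1.39) and NGFR (1.23), and LTBR (−1.30) and TNFRSF1A (−1.24) were lower. Against mocetinostat it called 0 members higher (background 1.22%) and 6 lower (2.68%), namely NGFR (−3.08), TNFSF15 (−2.39), TNFSF10 (−2.21), TNFRSF21 (−1.68), LTBR (−1.29) and TNFRSF11B (−1.04). The TNFRSF11B call was lost without mocetinostat replicate 3 (−0.92) and without JQ1+mocetinostat replicate 2 (−0.99). At an unadjusted p under 0.05 without a minimum fold, 5 members were higher in that comparison, TNFSF9 the most (0.75, SE 0.11, adjusted p = 0.000822). LTBR was the member called lower against both compounds.

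JQ1 and mocetinostat themselves differed in 1 direction. Directly compared, JQ1 called 0 members higher than mocetinostat (background 2.89%) and 11 lower (6.32%), a share of 26.2% of the members. These were NGFR (−4.30), TNFRSF9 (−3.71), TNFSF15 (−2.43), TNFSF9 (−2.21), CD40 (−1.66), TNFRSF10D (−1.64), TNFRSF11A (−1.61), TNFRSF10B (−1.48), TNFSF10 (−1.28), EDA (−1.16) and TNFRSF21 (−1.12). TNFRSF12A had the largest value in the other direction (0.97, SE 0.10, adjusted p = 2.00e-05), under 2-fold, and 6 members were higher at an unadjusted p under 0.05. With the median deviation of ribosomal protein genes as the scale, TNFRSF12A was called higher and the counts became 1 and 11.

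The combination was next set against the added log2 changes of JQ1 and mocetinostat, a test of the interaction in the same fit. Here 3 members lay above the sum (background 3.39% of genes) and 3 below it (2.91%). TNFSF10 lay furthest below. The single changes sum to 0.37, the combination gave −1.39, and the departure was −1.76 (SE 0.11, adjusted p = 3.14e-06), with 3 of 3 combination arrays below the level of the sum. TNFRSF21 departed by −1.24 (SE 0.12, adjusted p = 6.33e-05) and NGFR by −1.07 (SE 0.22, adjusted p = 0.00807), each with 3 of 3 arrays below. TNFRSF10B lay above its sum by 1.09 (SE 0.13, adjusted p = 0.000208), FAS by 1.07 (SE 0.19, adjusted p = 0.00314) and TNFRSF14 by 1.35 (SE 0.30, adjusted p = 0.0131), each with 3 of 3 arrays above. For TNFRSF14 the level that the sum gives is 2.32 and the lowest signal of the gene in any array 3.15, and for FAS these are 3.51 and 3.89, so that all 12 arrays of both genes lie above the level of the sum. Of the 12 fits that leave out 1 array, the NGFR call was lost in 8 (departures of −1.10 to −0.95), all but those without JQ1 replicate 3, mocetinostat replicate 2, JQ1+mocetinostat replicate 3 or DMSO replicate 3. The TNFRSF14 call was lost in 10 of them (1.14 to 1.43), all but those without JQ1 replicate 3 or mocetinostat replicate 2, and the FAS call without JQ1 replicate 2, mocetinostat replicate 3 or DMSO replicate 2 (0.94 to 0.999). TNFRSF9 and EDA, by contrast, differed from their sums by 0.26 (95% interval −0.06 to 0.59) and −0.06 (−0.46 to 0.35).

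**Figure D4:**
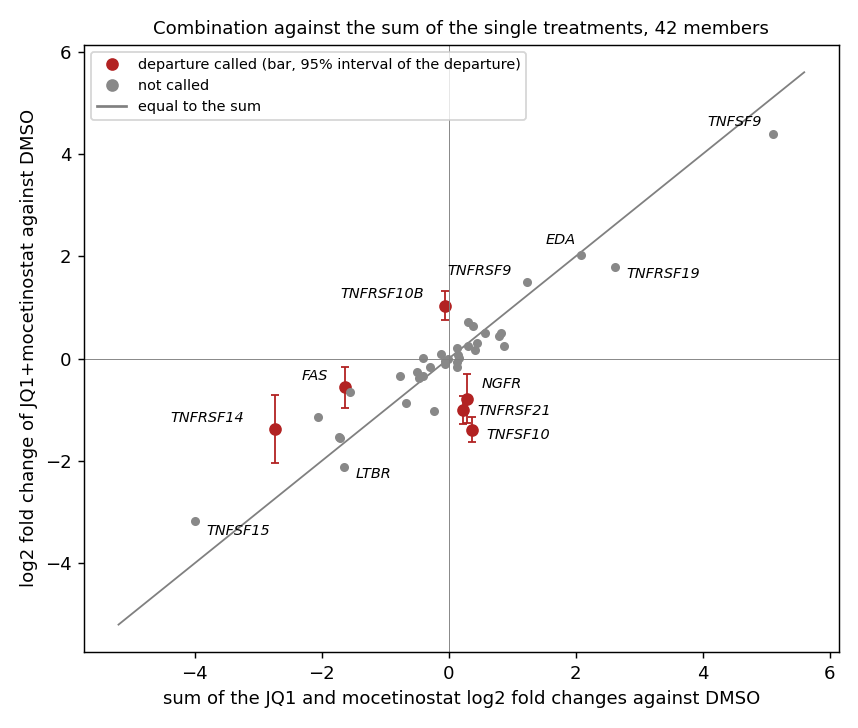
Log2 fold change of JQ1+mocetinostat against DMSO (y axis) plotted on the sum of the single-compound changes (x axis) for the 42 members, each point 1 gene, with the line of equality. The 6 called departures are red with the 95% interval of the departure as bars, TNFSF10, TNFRSF21 and NGFR below the line and TNFRSF10B, FAS and TNFRSF14 above it.

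Components of the signalling pathways downstream were examined in lists chosen by function. The shares of all genes called, as above, were 2.14% higher and 4.51% lower with JQ1, 7.08% and 5.50% with mocetinostat, and 7.06% and 8.11% with the combination. Of 10 measured genes of the death-inducing and necroptosis complexes, 0 were higher and 1 lower with JQ1, 1 higher and 2 lower with mocetinostat, and 0 higher and 5 lower with the combination, where the median log2 fold change was −1.07 against −0.00098 over all genes. MLKL, the pore-forming protein of necroptosis, fell with JQ1 (−2.67), mocetinostat (−1.80) and the combination (−2.85). CFLAR, the caspase-8 inhibitor cFLIP, fell with the combination (−2.66), as did CASP8 (−1.62), BID (−1.58), which links caspase-8 to mitochondria, and XIAP (−1.34), an inhibitor of caspases. CASP8 also fell with mocetinostat (−1.08), and RIPK3, the kinase that activates MLKL, rose with it (1.66). The adaptor TRADD had the largest positive value with JQ1 (0.83), which was not called. The list thus holds both inducers and inhibitors of death among the genes that fell.

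Of 14 measured genes of TRAF, cIAP and NF-κB signalling, 1 was higher and 2 lower with JQ1, 2 higher and 2 lower with mocetinostat, and 1 higher and 2 lower with the combination, with medians of −0.09, −0.21 and −0.18. TNFAIP3, a feedback inhibitor of NF-κB that is also in the list of TNF-induced genes below, fell with JQ1 (−2.48), rose with mocetinostat (1.08) and gave 0.62 with the combination. TRAF1 fell with JQ1 (−1.71), mocetinostat (−1.05) and the combination (−1.51), and MAP3K14, the kinase of the non-canonical NF-κB pathway, rose with each (1.21, 1.12 and 1.11). TRAF5 fell with mocetinostat (−1.08) and with the combination (−1.58), where TRAF3 gave −0.99, under 2-fold. Of 5 genes of ectodomain shedding, 0 were called with JQ1, RHBDF1 fell with mocetinostat (−1.15) and RHBDF2 fell with the combination (−1.17), both being regulators of the TNF-releasing protease ADAM17, which gave 0.84 with mocetinostat.

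Of 11 measured genes that TNF induces in many cells, 0 were higher and 5 lower with JQ1, 6 higher and 0 lower with mocetinostat, and 2 higher and 2 lower with the combination. The cytokine IL6 fell with JQ1 (−2.78), rose with mocetinostat (2.52) and fell with the combination (−1.31). The adhesion molecule ICAM1 fell with JQ1 (−2.60) and rose with mocetinostat (1.14). The chemokine CXCL8 fell with JQ1 (−1.55) and rose with mocetinostat (3.88) and with the combination (1.63). With TNFAIP3, these made 4 genes called lower with JQ1 and higher with mocetinostat. Others differed from them. The chemokine CCL2 rose with mocetinostat (2.83) and the combination (1.52) and gave −0.76 with JQ1, not called. TNFAIP6 rose with mocetinostat (1.38), with 0.29 after JQ1. TNFAIP2 fell with JQ1 (−2.22) and the combination (−1.24), with 0.63 after mocetinostat. The median of the list was −0.79 for JQ1, 1.08 for mocetinostat and −0.09 for the combination, beside 0.02, −0.01 and −0.00098 over all genes. Among the family members, NGFR and TNFRSF9 were called lower with JQ1 and higher with mocetinostat. The share of all genes with this pattern was not determined, so it is not shown to be particular to the list or the family.

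**Figure D5:**
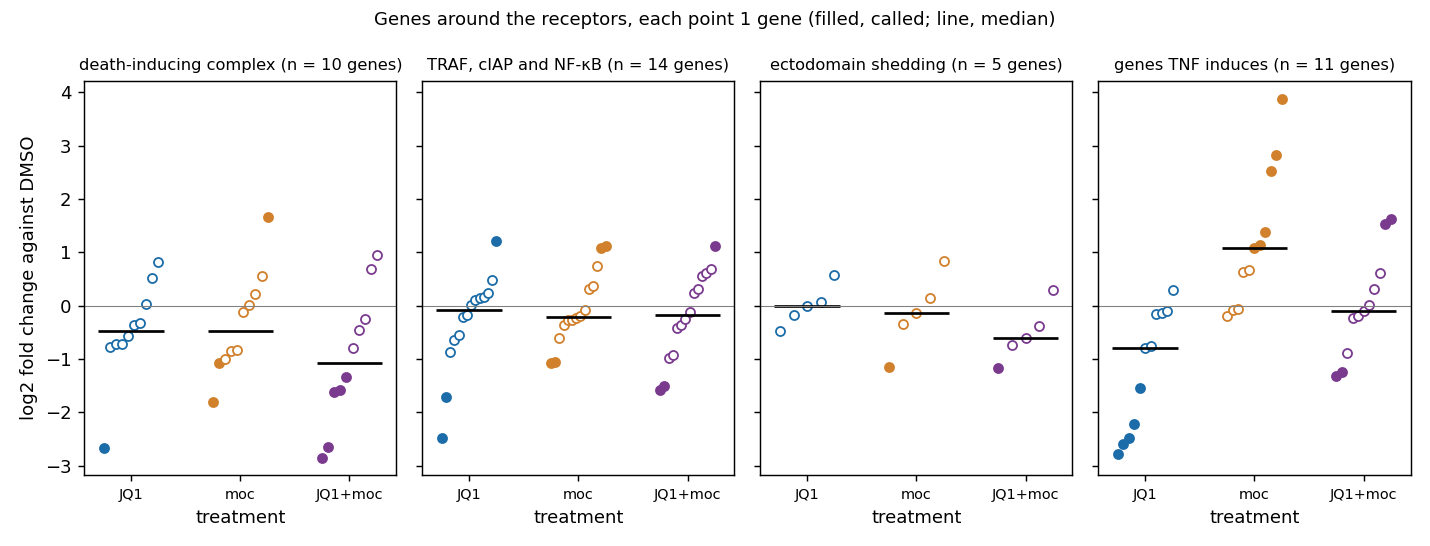
Log2 fold change against DMSO (y axis) of genes around the receptors, with 1 point per gene, filled where called, and a line at the median of each list, for JQ1, mocetinostat (moc) and their combination. The median of the genes TNF induces lies at −0.79 with JQ1 and at 1.08 with mocetinostat, and that of the death-inducing complex at −1.07 with the combination.

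Promoter sequences from RefSeq matched 26 of the 42 members, with 35 windows of 250 bases before to 50 after a gene start. The motifs searched on both strands were a pair of NF-κB motifs, the promoter element TATAAA, the AP-1 motif TGACTCA and the E box CACGTG. Matches to the TATA element were found in 6 of the 35 windows, in LTA, TNF, TNFRSF18, TNFSF9, TNFSF10 and TNFSF11, and in 11.5% of all 35116 windows. The AP-1 motif was found in 7 windows of 5 genes, EDA2R, TNFRSF8, TNFRSF9, TNFSF14 and TNFSF15, and in 4.95% of all windows. The E box was found in 5 windows of 4 genes, EDA2R, LTBR, TNFRSF8 and TNFRSF21, and in 7.26%. The windows of EDA2R with these motifs overlap each other, as do those of TNFSF14. EDA2R, TNFRSF8 and TNFSF14 were called in no comparison, and a relation of motifs to changes was not tested. The NF-κB motif of TNFRSF9 occurs in 0.145% of all windows, and the other one, found in the 2 overlapping windows of LTB, in 0.191%. The log2 changes of these genes with JQ1, mocetinostat and the combination were −1.24, 2.47 and 1.49 for TNFRSF9 and −0.84, −1.21 and −1.15 for LTB.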

How the data were processed

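The authors deposited log2 values made with RMA for 53617 probe sets on 12 arrays, and these were analysed without further normalization. Because RMA makes the arrays' distributions alike, a shift common to most transcripts would be hidden. Its version and the genome build are not given in the sources used here. Symbols came from the platform annotation, in which 23866 probe sets have 1 symbol and 1852 have several. The members and the lists were chosen with earlier results of these data known.

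All arrays were fitted with limma 3.58.1 in R 4.3.3, with a mean per treatment (8 residual degrees of freedom, prior 3.10). Calls required a 2-fold change or more with unadjusted p below 0.001, and Benjamini-Hochberg adjusted p-values cover all probe sets. The number of arrays limits the precision. Scripts were tested on simulated data. Described by array were the 14 called members with the largest changes against DMSO, together with TNF, TNFSF10, FASLG, FAS, TNFRSF1A, TNFRSF10A and TNFRSF10B. TNFRSF10D was added after its values were seen. From each list of downstream or TNF-induced genes, all genes called against DMSO were named, with some that were not called. Alternatives were an unmoderated test, a mean-variance trend, fits of 2 groups, blocks by replicate number or title number, a signal minimum of 5, other thresholds, probe set means, scaling to ribosomal protein genes and leaving out each array. Scaling by the median deviation of those genes was added after seeing the data.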

Additional observations from a re-analysis of the deposited data

Results flagged for a closer look

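Of the 42 members, 6 were flagged because the effect of 1 compound differed with the other compound present, by the interaction term of the limma fit. TNFSF10 lay below the sum of the single log2 changes by the largest amount, with a departure of −1.76 (adjusted p = 3.14e-06), and 3 of 3 combination arrays were below the level of the sum. TNFRSF21 departed by −1.24 (adjusted p = 6.33e-05) and NGFR by −1.07 (adjusted p = 0.00807), with 3 of 3 arrays below for each gene. TNFRSF10B (1.09, adjusted p = 0.000208), FAS (1.07, adjusted p = 0.00314) and TNFRSF14 (1.35, adjusted p = 0.0131) lay above their sums, each in 3 of 3 arrays. For FAS and TNFRSF14 the level of the sum, 3.51 and 2.32, was below the lowest signal of the gene in any array, 3.89 and 3.15, so that all 12 arrays lay above it. The TNFRSF14 call was lost in 10 of the 12 fits that leave out 1 array, the NGFR call in 8 and the FAS call in 3.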

How the results depend on the processing

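Of 64 called member changes over the 7 comparisons, 51 kept direction and call under every alternative tried. Of 1454 alternative values 1405 kept the call, 49 lost it and 0 were reversed. These totals include 2 settings that could not lose a call. The 1.5-fold limit is looser than the main one at the same p, and all called members had an adjusted p of 0.0131 or less, under the 0.05 limit. Members with a mean signal under 5 had no value in the fit with a signal minimum. Leaving out genes with a mean signal under 5 reduced the members called with JQ1 to 6, since 16 members were then fitted. Of the genes kept, 4.33% were called higher and 7.53% lower with JQ1. With at least 1.5-fold in place of 2-fold, 16 members were called with JQ1, 16 with mocetinostat and 13 with JQ1+mocetinostat against mocetinostat. The shares of all genes were then 6.44% higher and 8.51% lower with JQ1, and 12.8% and 11% with mocetinostat. For JQ1+mocetinostat against mocetinostat they were 3.81% and 6.69%. Leaving out 1 array at a time gave 9 to 10 called members with JQ1, 8 to 10 with mocetinostat, 12 to 14 with the combination, 8 to 9 for the combination against JQ1, 5 to 7 for it against mocetinostat, 11 to 12 for JQ1 against mocetinostat and 3 to 7 departures from the sum. Of all genes, these fits called 2.09% to 2.24% higher and 4.41% to 4.53% lower with JQ1. With mocetinostat they called 6.86% to 7.09% and 5.37% to 5.58%, and with the combination 6.95% to 7.18% and 7.86% to 8.24%. Against JQ1, the combination had 4.28% to 4.48% and 3.15% to 3.38%, and against mocetinostat 1.18% to 1.32% and 2.58% to 2.7%. JQ1 against mocetinostat had 2.75% to 2.95% and 6.18% to 6.32%, and the departures 3.23% to 3.43% and 2.74% to 3.04%. With 3 departures without JQ1 replicate 2, mocetinostat replicate 3 or DMSO replicate 2, the departure counts rest on few arrays. Arrays of the same replicate number showed no shared deviation (r −0.13 to 0.06 over 18 pairs). Arrays of different numbers gave −0.14 to 0.19 over 36 pairs. A lack of shared deviation does not show that the samples were unpaired, so pairing could not be decided. A fit with replicate number as a replicate block gave 10, 9, 14, 8, 6 and 11 called members in the 6 comparisons between groups and 5 departures, with NGFR lost (−1.07, limma adjusted p = 0.0198). In that order, 2.12%, 7.02%, 7%, 4.41%, 1.21%, 2.88% and 3.29% of all genes were then called higher. The shares called lower were 4.48%, 5.49%, 8.05%, 3.22%, 2.66%, 6.26% and 2.85%. With the number in the array titles as a block, TNFRSF11A with mocetinostat (0.89), TNFRSF1A with the combination (−0.98) and the departures of NGFR (−1.04) and TNFRSF14 (1.60) were lost. Without moderation the same 2 departures were lost. Scaled to ribosomal protein genes, 71.4% of the called departures lay above the sum instead of 50%, and NGFR was lost (−0.88). All genes moved the same way, with 4.79% called above the sum and 1.81% below it, instead of 3.39% and 2.91%. By the median deviation of ribosomal protein genes, TNFRSF14 was lost (1.35, limma adjusted p = 0.0154). Signals under 5 compress differences, so changes of the dim members TNF, FAS, LTB, TNFRSF11B and TNFRSF14 are less certain in size. The same holds for TNFSF15, with means of 4.88 with JQ1 and 4.92 with the combination. It also holds for EDA and TNFRSF19, with DMSO means of 4.23 and 4.50. Several downstream genes share this limit, among them RIPK3 and TNFAIP6, with DMSO means of 3.20 and 2.91. Others are CASP8, CFLAR and XIAP, with means of 3.93, 4.38 and 4.35 with the combination.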
